A study of Mus musculus with 6 samples.

Results

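The proteasome genes of C2C12 cells were read on expression arrays of shPARP2 and scPARP2 cells. C2C12 is a mouse myoblast line that grows as single cells and can fuse into myotubes. The shPARP2 cells carry a lentiviral short hairpin RNA against PARP2 and the scPARP2 cells a scrambled hairpin, and both were kept under puromycin in high-glucose medium with serum. Each condition is 1 cell line, so PARP2 silencing and whatever else distinguishes the lines cannot be told apart. Total RNA from 3 shPARP2 and 3 scPARP2 samples (250 ng each) was hybridized to Affymetrix whole-transcript mouse gene arrays, and it is not stated that the 3 samples of each line were cultured apart. The p-values therefore reflect the scatter among these arrays alone, part of which may be technical. The genes were chosen by name, as those whose symbol begins with Psma to Psmg and a number, together with Pomp. This took 51 of the 19938 genes that had a probe set naming them alone. Of these, 49 code for subunits, activators, an inhibitor or assembly chaperones of the proteasome. The remaining 2, Psmc3ip (a factor of meiotic recombination) and Psme3ip1 (a partner of the activator Psme3), are no subunits and were left out of the counts. Psmc3ip had a log2 fold change of -0.10 and Psme3ip1 one of 0.26, and neither passed the test.

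The proteasome is the protease that degrades most short-lived and damaged proteins of the cytosol and nucleus after they have been tagged with ubiquitin. Its barrel-shaped core is built of outer alpha rings, which gate the entry, and inner beta rings, which hold the cutting sites inside. A regulatory cap binds the ubiquitin chain, removes it, unfolds the protein with a ring of ATPases and feeds it into the core. Other activators can take the place of the cap, and cells exposed to interferon exchange the 3 catalytic beta subunits for immunoproteasome subunits that favour peptides for antigen presentation. In muscle the proteasome is known for removing proteins of the contractile apparatus during wasting. Transcription of subunit genes is known to be raised by NRF1 (Nfe2l1) when the proteasome is inhibited and by NRF2 (Nfe2l2) under oxidative stress, through antioxidant response elements.

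Promoter sequences are shown first for the genes with a match to the core of that element (TGACNNNGC), since the study concerned NRF2. RefSeq promoters (GRCm38.p6, from 250 bases before to 50 bases after each start of transcription) were found for 41 of the 49 genes, and both strands were searched. The core was found in 6 of the 41 genes (13.6% of their 44 promoters), beside 12.4% of all 32851 promoters in the table. In the following windows, 5′ to 3′ on the strand of the gene, capitals mark the match.
Psmc6: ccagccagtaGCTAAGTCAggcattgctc
Psmd12: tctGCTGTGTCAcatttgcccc
Psmd9: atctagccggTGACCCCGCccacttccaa
Psmb6: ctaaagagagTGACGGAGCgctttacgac
Psmb5: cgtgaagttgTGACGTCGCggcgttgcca
Psme4: cgctgcggctGCAGCGTCAccagaagagc
In Psmb6, Psmb5 and Psmd9 the core read TGACNNNGC on the strand of the gene, and in Psmc6, Psmd12 and Psme4 it lay on the opposite strand. The windows lie at chr14:45329587-45329615 (Psmc6), chr11:107479278-107479299 (Psmd12), chr5:123228149-123228177 (Psmd9), chr11:70525338-70525366 (Psmb6), chr14:54618024-54618052 (Psmb5, minus strand) and chr11:30771758-30771786 (Psme4). The transcripts of these 6 genes did not move one way. Psmc6 (log2 fold change 0.54), Psmd12 (0.33) and Psmd9 (0.31) rose in shPARP2 cells, Psmb6 fell by 0.27 on the log2 scale, and Psmb5 (0.02) and Psme4 (0.02) did not pass the test. A match is a description of the letters and not a site of binding.

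The deposited values are log2 expression after RMA, and their medians ran from 7.04 to 7.18 over the 6 arrays. Parp2, the targeted gene, read 7.86, 8.14 and 7.91 on the shPARP2 arrays, against 8.94, 9.13 and 9.05 on the scPARP2 arrays. This left 47.6% of the scPARP2 signal (log2 fold change -1.07, limma adjusted p = 0.00103). Of all 19938 genes, 24.0% passed the test at an adjusted p under 0.05, 12.4% higher and 11.6% lower in shPARP2 cells, and in 42.1% the 3 shPARP2 arrays did not overlap with the 3 scPARP2 arrays. The muscle lists moved with the lines. All 5 differentiated muscle markers rose (Myog, Myh3, Acta1, Ckm and Tnnt3), with a mean log2 signal over the list of 10.19 to 10.45 on shPARP2 arrays and 9.35 to 9.47 on scPARP2 arrays, and 4 of 5 myoblast markers rose (not Myod1), at 10.89 to 11.39 and 10.64 to 10.69. Of 5 leukocyte markers, Cd68 and Cd74 fell and Ptprc, Lyz2 and Laptm5 did not pass, with a list mean of 7.22 to 7.27 in shPARP2 cells and 7.24 to 7.36 in scPARP2 cells; arrays give no zero by which a marker could be called absent. The part of these shifts in the values below was not tested, and in whole cultures fewer cells of a type and less RNA per cell cannot be told apart.

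Proteasome genes changed in both directions and by small amounts. Of the 49 genes, 8 rose (Psmb7, Psmc2, Psmc6, Psmd2, Psmd6, Psmd12, Psmd14 and Psmd9), 7 fell (Psmb4, Psmb6, Psmb10, Psmd4, Psmd7, Psme1 and Psme2) and 34 did not pass. The share that passed was 30.6%, beside 24.0% of all genes. The median log2 fold change was 0.02 over the proteasome genes and -0.02 over all genes, and it was positive for 28 and negative for 21 of the 49. The arrays of the lines did not overlap for 31 proteasome genes (63.3%), 16 of them higher and 15 lower in shPARP2 cells. Only Psme1 and Psme2 passed the test with a change of at least 1.5-fold. The proteasome is abundantly transcribed, and 42 of the 49 genes had a mean log2 signal of at least 9. Among all 6172 genes with such a signal, a limit chosen after the data were seen, 45.3% passed and 72.6% did not overlap, whereas 31.0% of the 42 proteasome genes passed and 66.7% did not overlap.

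The division into higher and lower genes depended on how the arrays were scaled and on single arrays. With the 8 higher and 7 lower genes of the values as deposited stood 7 higher and 10 lower after quantile normalization, and 7 higher and 3 lower after each array was centred on its median. Leaving out shPARP2 replicate 1, 2 or 3 gave 4 higher and 3 lower, 5 higher and 10 lower, and 5 higher and 6 lower genes. Leaving out scPARP2 replicate 1, 2 or 3 gave 1 higher and 4 lower, 1 higher and 2 lower, and 1 higher and 2 lower genes. Psmc6, Psme1 and Psme2 passed in all 6 of these fits, and no proteasome gene changed its direction from one side of the test to the other. The counts over all genes moved as well. They were 2469 higher and 2308 lower as deposited, and 2388 and 1740 after centring. Without shPARP2 replicate 1, 2 or 3 they were 2017 and 1617, 2448 and 2721, and 2370 and 2156. Without scPARP2 replicate 1, 2 or 3 they were 1462 and 1351, 1490 and 1281, and 1390 and 1317. The spread was wider among shPARP2 arrays, with a median SD per proteasome gene of 0.0861, against 0.0486 among scPARP2 arrays, and it was larger in shPARP2 for 38 of the 49 genes.

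**Figure D1:**
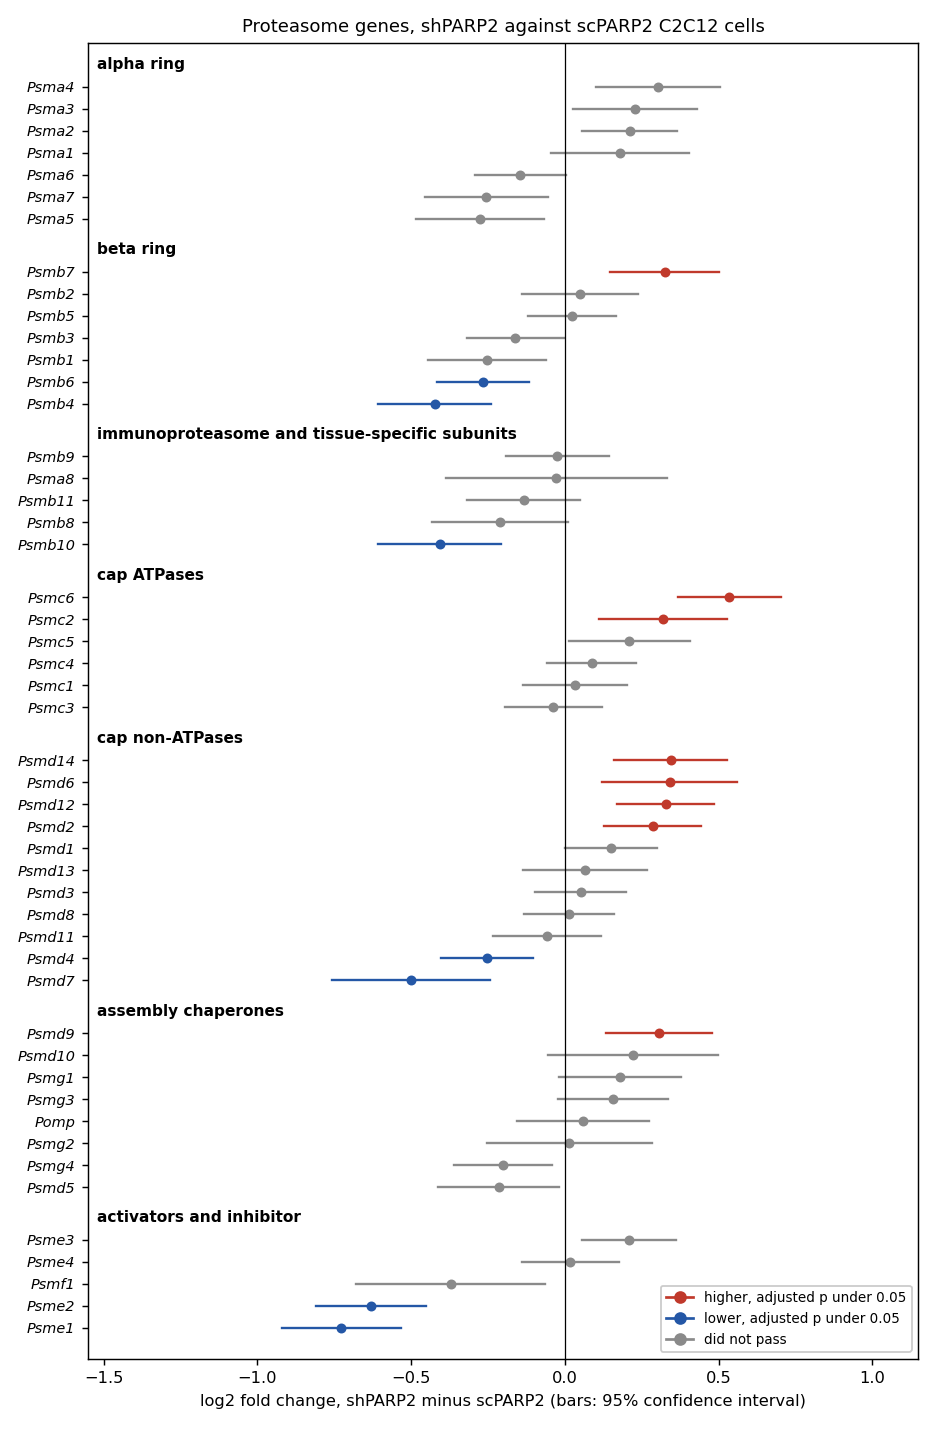
Log2 fold change (shPARP2 minus scPARP2) of the 49 proteasome genes by group, with points for the estimate and bars for the 95% confidence interval (n = 3 arrays each), coloured by whether the adjusted p was under 0.05. The 8 genes that rose lie between 0.29 and 0.54, and Psme1 and Psme2 stand lowest at -0.73 and -0.63.

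The alpha ring, whose subunits Psma1 to Psma7 form the gate and the docking face for the cap, had no gene past the test on the values as deposited. This count depended on the setting, with 2 alpha ring genes higher and 2 lower without dim probe sets or with probe sets of single genes alone, 3 higher and 1 lower with a trended and robust variance, 1 higher and 2 lower with array weights, 2 lower after quantile normalization and 1 higher after centring on array medians. The log2 fold change was positive for Psma1 (0.18), Psma2 (0.21), Psma3 (0.23) and Psma4 (0.30), and negative for Psma5 (-0.28), Psma6 (-0.14) and Psma7 (-0.26). Psma4 had the smallest p of the ring. Its log2 signal was 9.97, 9.97 and 10.16 on the shPARP2 arrays, against 9.68, 9.82 and 9.70 on the scPARP2 arrays, and the arrays did not overlap (standard error 0.08, adjusted p = 0.0513). In 6 of the 7 genes (85.7%) the arrays of the lines were apart, 3 higher and 3 lower in shPARP2 cells. Beside this stood 42.1% of all genes and 72.6% of those with a mean log2 signal of at least 9. Every alpha ring gene had such a signal. Without shPARP2 replicate 3 the median of the ring was 0.10 in place of 0.18. Several probe sets named the same gene in this group. The 3 probe sets of Psma3 gave 0.23 to 0.25, and the less bright probe set of Psma5 passed the test (log2 fold change -0.33, adjusted p = 0.0360) where the brighter one did not (adjusted p = 0.0777). The RefSeq table lists 6 pseudogenes of 4 of the members (Psma5, Psmb5, Psmb6 and Psmb7), and signal from such copies cannot be told apart from that of the gene.

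The beta ring carries the cutting sites, and its genes moved in both directions. Psmb7, the trypsin-like subunit, rose, Psmb6, the caspase-like subunit, and Psmb4, a subunit without a cutting site, fell, and the other 4 genes did not pass. The share past the test was 42.9%, beside 24.0% of all genes and 45.3% of those with a mean log2 signal of at least 9. Every beta ring gene had such a signal. Psmb7 read 10.99, 10.96 and 11.14 on the shPARP2 arrays, against 10.70, 10.72 and 10.69 on the scPARP2 arrays, which is 1.25-fold higher (log2 fold change 0.33, standard error 0.07, adjusted p = 0.0262). Psmb6 read 10.59, 10.69 and 10.64 on the shPARP2 arrays, against 10.90, 10.91 and 10.90 on the scPARP2 arrays (log2 fold change -0.27, standard error 0.06, adjusted p = 0.0288). Psmb4 read 11.37, 11.50 and 11.30 on the shPARP2 arrays, against 11.76, 11.86 and 11.82 on the scPARP2 arrays (log2 fold change -0.42, standard error 0.08, adjusted p = 0.0114). In each of these genes every shPARP2 array lay on the same side of every scPARP2 array. Over the ring, 71.4% of the genes did not overlap, beside 42.1% of all genes and 72.6% of those with a mean of at least 9. Psmb5, the chymotrypsin-like subunit, read 12.94, 12.95 and 12.98 on the shPARP2 arrays and 12.91, 12.96 and 12.92 on the scPARP2 arrays, with a log2 fold change of 0.02 and a 95% confidence interval of -0.12 to 0.17. The values were -0.25 for Psmb1, 0.05 for Psmb2 and -0.16 for Psmb3, and the second probe set of Psmb3 gave -0.13. Psmb4 missed the threshold without scPARP2 replicate 2 or 3 (adjusted p = 0.0584 and 0.0580), and Psmb6 and Psmb7 missed it without shPARP2 replicate 1 or any 1 of the scPARP2 arrays (adjusted p up to 0.121 and 0.110). Psmb6 also missed it after centring on the array medians.

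Psmb10, the immunoproteasome subunit that takes the place of Psmb7, fell, and the remaining genes of the specialised cores did not pass. Psmb10 read 7.79, 7.97 and 7.79 on the shPARP2 arrays, against 8.17, 8.29 and 8.32 on the scPARP2 arrays (log2 fold change -0.41, standard error 0.08, adjusted p = 0.0177), with no overlap. Psmb8, which takes the place of Psmb5, read 6.63, 6.50 and 6.73 on the shPARP2 arrays and 6.82, 6.73 and 6.94 on the scPARP2 arrays (log2 fold change -0.21, 95% confidence interval -0.43 to 0.01). Psmb9, which takes the place of Psmb6, read 7.56, 7.51 and 7.62 on the shPARP2 arrays and 7.52, 7.59 and 7.65 on the scPARP2 arrays (log2 fold change -0.02, 95% confidence interval -0.19 to 0.14). The arrays overlapped for Psmb8 and Psmb9. Psmb11, the subunit of the thymus, and Psma8, the subunit of the testis, had log2 fold changes of -0.13 and -0.03. All 5 estimates of this group were negative, but those of Psmb9 and Psma8 were only -0.02 and -0.03. Of all 19938 genes, 10993 had a negative estimate. In this group 1 of 5 genes passed the test, beside 24.0% of all genes. However, Psmb8, Psmb11 and Psma8 read below the median of every array, at percentiles 42.2, 47.8 and 21.6 of mean signal. Such probe sets carry less signal over background. The call of Psmb10 was lost without shPARP2 replicate 1, scPARP2 replicate 2 or scPARP2 replicate 3 (adjusted p up to 0.0847) and after centring on the array medians.

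Each immunoproteasome subunit was then set against the subunit it replaces on the same array, as the difference of their log2 signals. Only the change of this difference between the lines was read, since probe sets of different genes do not share a scale. The difference Psmb10 minus Psmb7 was -3.20, -2.99 and -3.35 on the shPARP2 arrays, against -2.53, -2.44 and -2.37 on the scPARP2 arrays, a change of -0.73. For Psmb8 minus Psmb5 it was -6.31, -6.45 and -6.25 on the shPARP2 arrays, against -6.09, -6.24 and -5.98 on the scPARP2 arrays, a change of -0.23. For Psmb9 minus Psmb6 it was -3.03, -3.18 and -3.01 on the shPARP2 arrays, against -3.38, -3.32 and -3.24 on the scPARP2 arrays, a change of 0.24. The values of the lines did not overlap in any of the 3 pairs, and the change was negative in 2 and positive in 1. Among single genes, 42.1% of all did not overlap, and no such share was taken for differences between genes. Psmb8 read below the median of every array, and Psmb9 had a log2 fold change of -0.02 where Psmb6 had -0.27. In each of the 3 pairs the two-sided exact permutation test gave p = 0.1 (0.1 after adjustment over the 3 pairs), the smallest p that 20 assignments of 3 against 3 arrays allow, so no pair could pass.

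**Figure D2:**
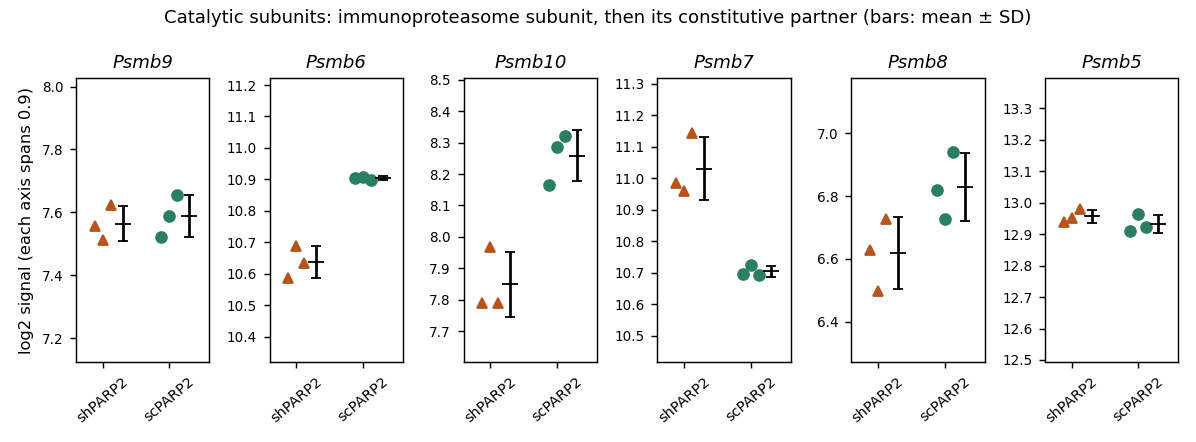
Log2 signal of the immunoproteasome subunits Psmb9, Psmb10 and Psmb8, each followed by its constitutive partner, with triangles for the shPARP2 arrays, circles for the scPARP2 arrays and bars for the mean ± SD (n = 3 arrays each). Psmb6 and Psmb10 lie lower and Psmb7 higher in shPARP2 cells without overlap, while Psmb9, Psmb8 and Psmb5 overlap.

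In the cap, 6 genes rose and 2 fell among 17 (47.1%), near the 45.3% of all genes with a mean log2 signal of at least 9, which every cap gene had. The arrays did not overlap for 64.7% of the cap genes, beside 42.1% of all genes and 72.6% of those with such a signal. The median log2 fold change of the cap was 0.09, beside 1 that rose and 2 that fell among the 14 alpha and beta ring genes, with a median of -0.06. Whether the cap and the core differed was not tested. The cap ATPases Psmc1 to Psmc6 form the unfolding ring. Psmc6 rose 1.45-fold, the largest increase among the 49 genes. It read 11.27, 11.41 and 11.42 on the shPARP2 arrays, against 10.85, 10.81 and 10.84 on the scPARP2 arrays (log2 fold change 0.54, standard error 0.07, adjusted p = 0.00354), and it passed in each fit with 1 array left out (adjusted p up to 0.0247). Psmc2 read 9.60, 9.66 and 9.84 on the shPARP2 arrays, against 9.31, 9.40 and 9.43 on the scPARP2 arrays (log2 fold change 0.32, standard error 0.09, adjusted p = 0.0482). The arrays of the lines were apart for both genes, but Psmc2 lay near the threshold and missed it whichever of the 6 arrays was left out (adjusted p up to 0.170). The other ATPases did not pass, with log2 fold changes of 0.03 for Psmc1, -0.04 for Psmc3, 0.09 for Psmc4 and 0.21 for Psmc5.

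The cap subunits other than the ATPases include the scaffolds, the ubiquitin receptors and the lid, which frees ubiquitin from the substrate. Of these 11 genes, 4 rose and 2 fell (54.5%). This stood beside 24.0% of all genes and 45.3% of those with a mean log2 signal of at least 9, which all 11 had. Psmd14, the deubiquitinase of the lid, read 11.77, 11.84 and 11.97 on the shPARP2 arrays, against 11.46, 11.55 and 11.53 on the scPARP2 arrays (log2 fold change 0.34, standard error 0.08, adjusted p = 0.0242). Psmd7, with which Psmd14 pairs in the lid, moved the other way. It read 10.52, 10.82 and 10.45 on the shPARP2 arrays, against 11.08, 11.12 and 11.09 on the scPARP2 arrays (log2 fold change -0.50, standard error 0.11, adjusted p = 0.0210). The arrays did not overlap for either gene, and shPARP2 replicate 2 lay closest to the scPARP2 arrays for Psmd7. Psmd14 missed the threshold without any 1 of the scPARP2 arrays (adjusted p up to 0.105), and Psmd7 without any 1 of these or shPARP2 replicate 1 (adjusted p up to 0.0800) and after centring on the array medians.

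Psmd12 and Psmd6 are structural subunits of the lid, and both rose. Psmd12 read 10.59, 10.60 and 10.68 on the shPARP2 arrays, against 10.25, 10.35 and 10.30 on the scPARP2 arrays (log2 fold change 0.33, standard error 0.07, adjusted p = 0.0168). Psmd6 read 10.23, 10.37 and 10.39 on the shPARP2 arrays, against 9.85, 10.10 and 10.01 on the scPARP2 arrays (log2 fold change 0.34, standard error 0.09, adjusted p = 0.0470). The lines were apart for both, with less room in Psmd6. Psmd2, a scaffold of the base that docks shuttle proteins, read 11.88, 11.96 and 11.97 on the shPARP2 arrays, against 11.62, 11.70 and 11.64 on the scPARP2 arrays (log2 fold change 0.29, standard error 0.06, adjusted p = 0.0267), and its second probe set gave 0.33 (adjusted p = 0.0140). Psmd4, a receptor for ubiquitin chains, fell, at 9.78, 9.77 and 9.70 on the shPARP2 arrays, against 10.02, 9.97 and 10.01 on the scPARP2 arrays (log2 fold change -0.25, standard error 0.06, adjusted p = 0.0350). Without any 1 of the scPARP2 arrays each of these 4 genes missed the threshold. Psmd2 also missed it without shPARP2 replicate 3, Psmd4 without shPARP2 replicate 1 or 3, and Psmd6 without any 1 array, with adjusted p up to 0.0838 (Psmd12), 0.122 (Psmd2), 0.147 (Psmd4) and 0.152 (Psmd6). After centring on the array medians Psmd4 and Psmd6 missed it, and Psmd6 also after quantile normalization. The remaining subunits did not pass, with log2 fold changes of 0.15 for Psmd1, 0.05 for Psmd3, 0.01 for Psmd8, -0.06 for Psmd11 and 0.07 for Psmd13.

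**Figure D3:**
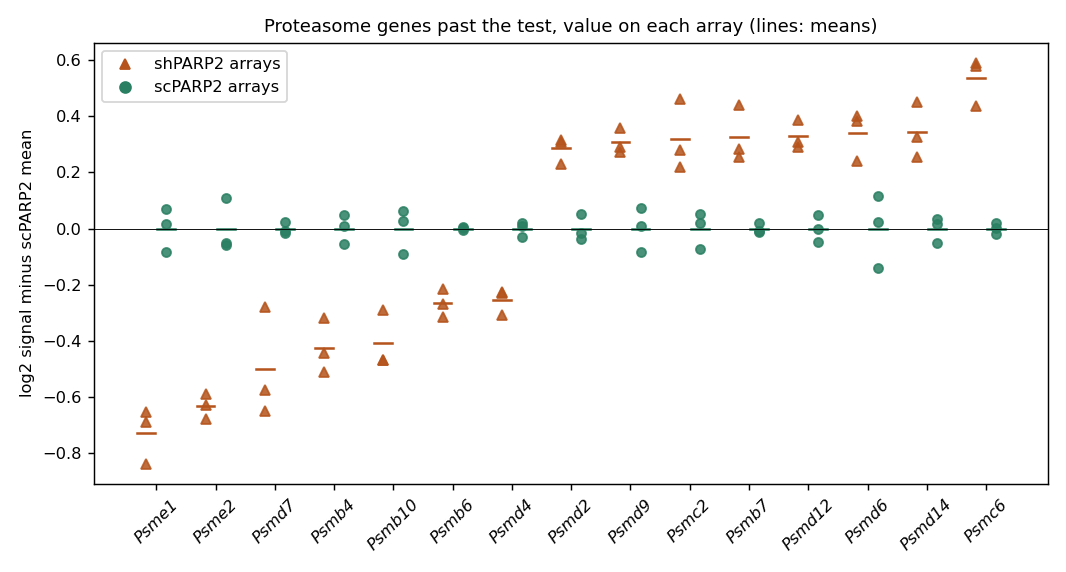
Log2 signal minus the scPARP2 mean on each array for the 15 proteasome genes past the test, ordered by fold change, with triangles for shPARP2 arrays, circles for scPARP2 arrays and lines for the means. The 7 genes that fell lie left of the 8 that rose. In none of the 15 do the arrays of the lines overlap, but the 15 were chosen by the test on these same arrays.

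Of 8 chaperones that assemble the proteasome, Psmd9 rose and 7 genes did not pass. Psmd9, which helps to build the ATPase ring, read 8.47, 8.56 and 8.49 on the shPARP2 arrays, against 8.12, 8.28 and 8.21 on the scPARP2 arrays (log2 fold change 0.31, standard error 0.07, adjusted p = 0.0288), without overlap. The other ATPase ring chaperones, Psmd5 and Psmd10, had log2 fold changes of -0.21 and 0.22. The values for the chaperones of the core were 0.18 for Psmg1, 0.01 for Psmg2, 0.16 for Psmg3, -0.20 for Psmg4 and 0.06 for Pomp, which helps the beta ring to mature. The call of Psmd9 was lost without shPARP2 replicate 1 or 2, without any 1 of the scPARP2 arrays (adjusted p up to 0.120) and after centring on the array medians.

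The clearest change was in the activator PA28, whose subunits Psme1 and Psme2 form a ring that opens the core and is known to be induced by interferon-gamma. Both fell in shPARP2 cells. Psme1 read 9.43, 9.46 and 9.28 on the shPARP2 arrays, against 10.03, 10.19 and 10.13 on the scPARP2 arrays, which left 60.4% of the scPARP2 signal (log2 fold change -0.73, standard error 0.08, adjusted p = 0.00195). Psme2 read 10.36, 10.45 and 10.41 on the shPARP2 arrays, against 10.99, 11.15 and 10.98 on the scPARP2 arrays, which left 64.5% of the signal (log2 fold change -0.63, standard error 0.07, adjusted p = 0.00240). The arrays were apart by more than the whole range within either line in both genes, and both passed in every fit with 1 array left out (adjusted p up to 0.0146 for Psme1 and 0.0140 for Psme2) and under every other setting tried. A probe set that names Psme2 together with its copy Psme2b read 9.27, 9.67 and 9.22 on the shPARP2 arrays and 9.43, 9.45 and 9.54 on the scPARP2 arrays (log2 fold change -0.09, adjusted p = 0.737), and Psme2b had no probe set of its own.

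The other activators and the inhibitor did not pass. Psme3, the nuclear relative of PA28, had a log2 fold change of 0.21 (adjusted p = 0.0706), Psme4, the large activator of the nucleus and testis, one of 0.02, and Psmf1, which binds the core and inhibits it in vitro, one of -0.37 (adjusted p = 0.103). For Psmf1 shPARP2 replicate 3 stood lowest, and the median of the 5 genes of this group, -0.37 on all arrays, was -0.48 without shPARP2 replicate 2 and -0.24 without shPARP2 replicate 3. In each case this median was the value of Psmf1 itself. Of the 5 genes, 3 had a negative and 2 a positive log2 fold change.

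**Figure D4:**
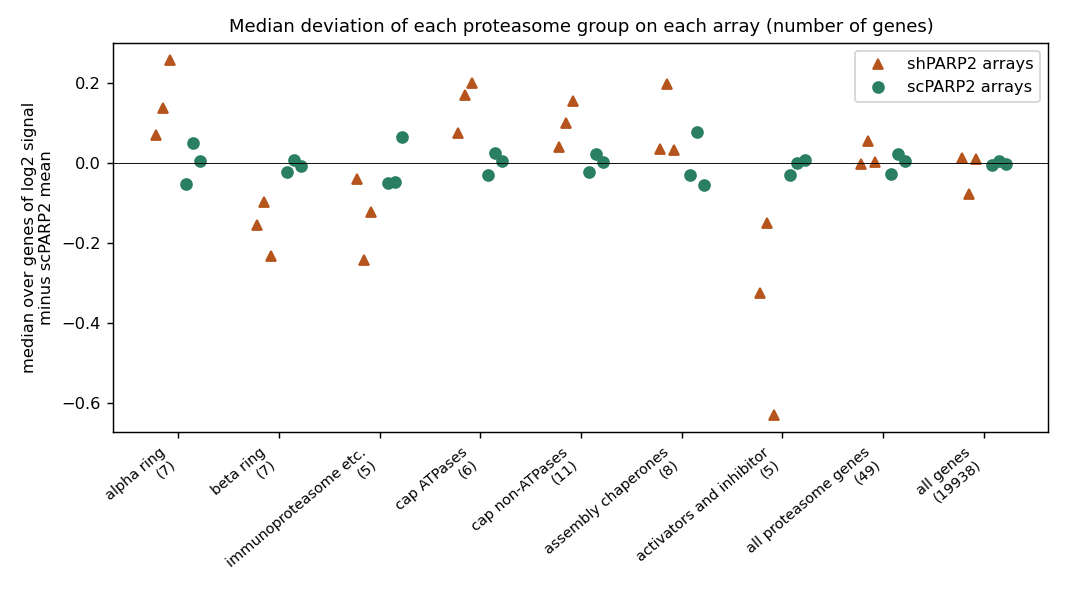
Median over the genes of each proteasome group of the log2 signal minus the scPARP2 mean, for each shPARP2 array (triangles) and each scPARP2 array (circles), with the number of genes in parentheses. The activators and inhibitor lie lowest on shPARP2 replicates 1 (-0.32) and 3 (-0.63). On shPARP2 replicate 2 they lie at -0.15, above the immunoproteasome and tissue-specific subunits at -0.24. Of the 5 activator and inhibitor genes, 3 had a negative and 2 a positive log2 fold change. The median over all 49 genes stays within 0.06 of 0.

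The promoters of the PA28 genes are shown because they changed most. Both lie on chromosome 14, and RefSeq promoters are printed here, 5′ to 3′ on the strand of each gene, for Psme1 at chr14:55578244-55578543 (plus strand) and Psme2 at chr14:55591052-55591351 (minus strand), the upstream one of the 2 starts that RefSeq gives for Psme2.
Psme1: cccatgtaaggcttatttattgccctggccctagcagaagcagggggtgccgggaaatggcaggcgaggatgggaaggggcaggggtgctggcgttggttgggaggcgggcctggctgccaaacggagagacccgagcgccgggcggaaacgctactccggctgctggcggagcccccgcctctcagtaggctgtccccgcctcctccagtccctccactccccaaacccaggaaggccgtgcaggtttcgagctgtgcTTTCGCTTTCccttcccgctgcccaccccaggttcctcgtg
Psme2: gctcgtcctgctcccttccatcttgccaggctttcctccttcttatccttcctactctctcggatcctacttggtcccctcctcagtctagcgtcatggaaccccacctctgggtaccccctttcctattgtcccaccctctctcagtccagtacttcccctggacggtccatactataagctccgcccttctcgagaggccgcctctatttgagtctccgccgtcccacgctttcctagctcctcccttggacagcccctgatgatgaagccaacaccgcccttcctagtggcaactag
The capitals in Psme1 mark a match to the interferon response element (GAAA, any 2 bases, GAAA), read on the opposite strand. The match begins at base 10, counted with the start of transcription as the first base. None of the 4 motifs searched has its letters in either Psme2 window. The interferon element was found in 5 of the 41 genes with a promoter (11.4% of the 44 promoters), beside 3.44% of all promoters.
Psme1: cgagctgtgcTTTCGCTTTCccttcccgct
Psmd4: ataaccaaccTTTCCATTTCtgtggcgcct
Psmd9: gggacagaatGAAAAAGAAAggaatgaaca
Psmb3: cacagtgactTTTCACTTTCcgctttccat
Psmg4: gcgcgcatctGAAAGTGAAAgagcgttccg
Among these windows, with the match again in capitals, Psme1 and Psmd4 fell, Psmd9 rose, and Psmb3 and Psmg4 did not pass. The gamma-activated site TTCNNNGAA was found in 3 genes (Psmb8, Psmd2 and Psmg1, 6.82% of the 44 promoters), beside 8.3% of all promoters, and CCAAT in 14 (31.8%), beside 37.4%.

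Several proteins join the cap without bearing a Psm symbol. Of 7 such genes measured, 4 rose (57.1%) and 3 did not pass, beside 24.0% of all genes past the test and 45.3% of those with a mean log2 signal of at least 9. The median log2 fold change was 0.32. Txnl1, a thioredoxin-like protein bound to the cap, read 10.30, 10.44 and 10.52 on the shPARP2 arrays, against 9.59, 9.71 and 9.65 on the scPARP2 arrays, 1.70-fold higher (log2 fold change 0.77, standard error 0.08, adjusted p = 0.00160). Uchl5, a deubiquitinase of the cap, read 9.25, 9.38 and 9.59 on the shPARP2 arrays, against 8.84, 8.92 and 8.85 on the scPARP2 arrays (log2 fold change 0.54, standard error 0.10, adjusted p = 0.0129). Usp14, the other deubiquitinase that docks there, had a log2 fold change of 0.32 (adjusted p = 0.0296), and Sem1, the smallest subunit of the lid, one of 0.39 (adjusted p = 0.0277). All 4 were higher on every shPARP2 array than on any scPARP2 array. The arrays did not overlap in any of the 7 genes, 5 of them higher and 2 lower (Ecpas and Ube3c) in shPARP2 cells. Beside this stood 42.1% of all genes and 72.6% of those with a mean log2 signal of at least 9. Only Txnl1 passed in every fit with 1 array left out. Sem1 and Usp14 missed the threshold without any 1 of the scPARP2 arrays, Usp14 also without shPARP2 replicate 3, and Uchl5 without scPARP2 replicate 1 or 3 (adjusted p up to 0.105, 0.129 and 0.0587). After centring on the array medians Usp14 missed it as well (adjusted p = 0.0550). The values were -0.23 for Ecpas, -0.17 for Ube3c and 0.18 for Fbxo7, none past the test, and Adrm1 was not measured by a probe set of its own.

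Shuttle proteins carry ubiquitinated substrates to the cap, and VCP is an ATPase that extracts them from complexes and membranes. Of 4 shuttle genes measured, Ubqln1 rose, at 11.26, 11.29 and 11.28 on the shPARP2 arrays, against 10.94, 10.95 and 10.97 on the scPARP2 arrays (log2 fold change 0.32, standard error 0.06, adjusted p = 0.0116). The share of these 4 that passed was 25.0%, beside 24.0% of all genes. Of 10 genes of VCP and its cofactors, Ufd1 (log2 fold change 0.38, adjusted p = 0.0105) and Faf1 (0.30, adjusted p = 0.0336) rose, Faf2 fell by 0.45 on the log2 scale (adjusted p = 0.0157), and 7 did not pass, Vcp itself (0.10) among them. The share of these 10 that passed was 30.0%, beside 24.0% of all genes and 45.3% of those with a mean log2 signal of at least 9. Ubqln1 missed the threshold without any 1 of the scPARP2 arrays, Ufd1 without scPARP2 replicate 1 or 3, Faf2 without shPARP2 replicate 1, scPARP2 replicate 2 or scPARP2 replicate 3, and Faf1 without any 1 array but shPARP2 replicate 1 (adjusted p up to 0.0643, 0.0577, 0.0732 and 0.135). Faf1 also missed it after centring on the array medians (adjusted p = 0.0546). Of the ubiquitin genes and their activating enzymes only Uba6 had a probe set of its own, at 9.67, 9.90 and 9.90 on the shPARP2 arrays and 9.76, 9.72 and 9.75 on the scPARP2 arrays (log2 fold change 0.08, adjusted p = 0.616).

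Among 7 genes that control proteasome genes or activity, 1 rose and 1 fell (28.6%), beside 24.0% of all genes. Of all genes with a mean log2 signal of at least 9, which all of these but Ngly1 had, 45.3% passed. Nfe2l1 (log2 fold change -0.04, 95% confidence interval -0.23 to 0.15) and Nfe2l2 (-0.09, 95% confidence interval -0.27 to 0.08), which code for NRF1 and NRF2, did not pass. Zfand2a, an arsenite-inducible protein that binds the cap, read 12.46, 12.57 and 12.49 on the shPARP2 arrays, against 12.04, 12.08 and 12.06 on the scPARP2 arrays (log2 fold change 0.45, standard error 0.06, adjusted p = 0.00488). Zfand5, which activates the proteasome and is known for its rise in wasting mouse muscle, read 10.56, 10.62 and 10.89 on the shPARP2 arrays, against 11.33, 11.23 and 11.27 on the scPARP2 arrays (log2 fold change -0.59, standard error 0.10, adjusted p = 0.00919). Neither gene overlapped between the lines, and both passed in every fit with 1 array left out. Of the 7 genes, 28.6% did not overlap, beside 42.1% of all genes. The values were 0.15 for Ngly1, which processes NRF1, -0.02 for Akirin2 and -0.05 for Ipo9, which bring the proteasome into the nucleus of human cells.

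Of 7 measured genes that work with the immunoproteasome in antigen processing, 1 was higher and 2 were lower (42.9%), beside 24.0% of all genes. Irf1, the interferon-regulated factor that drives immunoproteasome genes, read 7.94, 8.30 and 7.97 on the shPARP2 arrays, against 9.18, 9.18 and 9.13 on the scPARP2 arrays, which left 46.8% of the signal (log2 fold change -1.10, standard error 0.11, adjusted p = 0.00138). A second, dimmer probe set of Irf1 did not pass (0.04). Erap1, which trims the peptides in the endoplasmic reticulum, read 7.18, 7.55 and 7.38 on the shPARP2 arrays, against 8.22, 8.24 and 8.17 on the scPARP2 arrays (log2 fold change -0.84, standard error 0.10, adjusted p = 0.00269). Tap1, a chain of the peptide transporter whose gene lies beside Psmb8 and Psmb9, rose, at 7.70, 7.93 and 7.68 on the shPARP2 arrays, against 7.31, 7.34 and 7.36 on the scPARP2 arrays (log2 fold change 0.44, standard error 0.09, adjusted p = 0.0164). In all 3 genes the arrays of the lines were apart. Of the 7 genes measured, 71.4% did not overlap, beside 42.1% of all genes. The call of Tap1 was lost without any 1 of the scPARP2 arrays (adjusted p up to 0.0716), while Irf1 and Erap1 passed in all 6 fits. Tap2 (0.21), Tapbp (-0.45, adjusted p = 0.0799), B2m (-0.06) and the brightest probe set of Nlrc5 (0.10) did not pass. Of the 19 probe sets of Nlrc5, however, 15 were higher, and their mean passed (log2 fold change 0.73, adjusted p = 0.000795), which made 2 genes of this list higher and 2 lower when the probe sets of each gene were averaged.

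**Figure D5:**
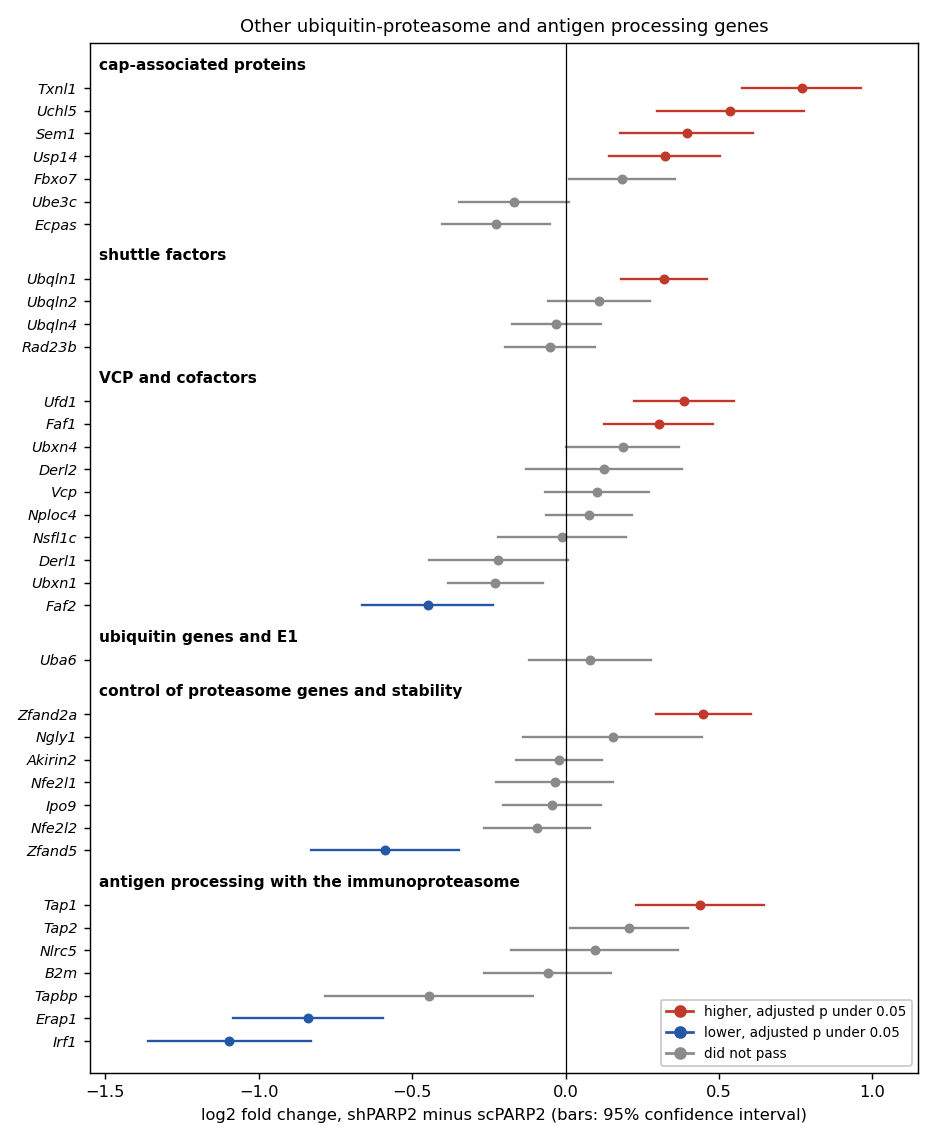
Log2 fold change (shPARP2 minus scPARP2) of 36 other genes of the ubiquitin-proteasome pathway and of antigen processing, with points for the estimate and bars for the 95% confidence interval (n = 3 arrays each), coloured by whether the adjusted p was under 0.05. Of these, 9 rose and 4 fell (36.1%, beside 24.0% of all genes) and 23 did not pass, with Txnl1 highest at 0.77 and Irf1 lowest at -1.10. Of all genes with a mean log2 signal of at least 9, which most of the 36 had, 45.3% passed.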

How the data were processed

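The authors deposited log2 values for 35556 probe sets on 6 arrays, which the submitters' processing notes credit to RMA (version not given in the sources used here). These values entered the analysis unchanged. A linear model without covariates was fitted with limma 3.58.1 (lmFit, eBayes, R 4.3.3), as the study did. The two-sided p-values of all probe sets were adjusted together by Benjamini-Hochberg, with a threshold of 0.05. Confidence intervals are at 95%. Gene names came from the platform annotation. Of the probe sets, 21789 name 1 gene, 1621 several and 12146 none. Each gene was read from its brightest single-gene probe set. Arrays give no read depth, and their number limits the precision. The members and lists were chosen with earlier results of these data known. Every member was named. Values on each array are given for members past the test, catalytic subunits and, in groups without such a member, the gene of smallest p. Other lists followed the same rule, some genes being given by fold change alone. Psmf1 and genes named without a call outside the proteasome were chosen after their values were seen. Replicate numbers did not pair the arrays. The calculation was tested on simulated data. Promoters were searched, and figures drawn, with Python 3.11.15 and matplotlib 3.10.9. The alternatives were quantile normalization, centring on array medians, leaving out probe sets under the 40th percentile of signal, array weights, a replicate block, a variance fitted as trended and robust, probe sets of single genes alone, averaging the probe sets of each gene, a change of at least 1.5-fold and leaving out each array.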

Additional observations from a re-analysis of the deposited data

How the results depend on the processing

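Over all probe sets, 3345 were higher and 3249 lower in shPARP2 cells. Requiring a change of at least 1.5-fold left 1458 and 1327, array weights gave 4941 lower, and leaving out 1 array gave 1842 to 3449 higher and 1761 to 3782 lower. Of the proteasome genes, 8 were higher and 7 lower. A trended and robust variance gave 13 higher. Centring on array medians gave 3 lower, and leaving out dim probe sets, single-gene probe sets only and array weights gave 11 lower each. A change of at least 1.5-fold left 0 higher and 2 lower. Leaving out 1 array gave 1 to 5 higher and 2 to 10 lower. The median log2 fold change of the alpha ring ran from 0.10 to 0.24 and that of the activators and inhibitor from -0.48 to -0.24 when 1 array was left out, and that of the beta ring was -0.087 after quantile normalization, in place of -0.16. The causes of these shifts were not tested.

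Arrays with the same replicate number did not deviate together (correlations -0.05, 0.09 and 0.01). With the replicate block, 1 proteasome gene was higher and 5 were lower. Of the 34 proteasome genes that did not pass, 12 passed under at least 1 alternative, and 12 of the 15 that passed lost the call in some fit with 1 array left out. No result changed its direction from one side of a test to the other. With 3 arrays a line and a single line per condition, changes as small as most of those given here lie near the threshold, and a dim probe set such as that of Psma8 carries less signal over background.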

Other observations

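Nlrc5, the interferon-induced activator of class I and immunoproteasome genes, had 19 single-gene probe sets. Of these, 15 were higher in shPARP2 cells, 0 were lower and 4 did not pass, the brightest among them, with log2 fold changes between -0.10 and 1.47. These values were looked at after the result of the brightest probe set was known.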
